A study of Homo sapiens with 4 samples.

Results

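Microtubule-binding, nucleating and tubulin-folding genes were examined in U87 cells, an established human glioblastoma line, after exposure to the small molecule YZ129. The set held 39 genes chosen by symbol: cofactors that fold tubulin, subunits of the gamma-tubulin complex, microtubule-associated proteins, motors, severing enzymes and modifying enzymes, without any alpha- or beta-tubulin. All 39 were found among the 19749 gene symbols of the authors' deposited table, and all 39 had an adjusted p-value. Cells received YZ129 at 5 µM for 24 h (2 libraries) or the vehicle DMSO (2 libraries), and poly(A)-selected RNA was sequenced. For the DMSO libraries no exposure time was recorded. Both groups were the same line, grown in the same serum-containing medium. The series title places the compound among inhibitors of the pathway of the chaperone HSP90, the phosphatase calcineurin and the NFAT transcription factors. The comparison asked which transcripts differed between the groups.

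Microtubules are polymers of alpha- and beta-tubulin dimers. New subunits are brought into the dimer by a chain of folding cofactors, polymers are started from a ring of gamma-tubulin and its partner proteins at the centrosome, and the lattice is then stabilised, capped, cut or used as a track by a large group of binding proteins and motors. Cells also adjust the amount of tubulin mRNA to the amount of unpolymerised tubulin: the factor TTC5 recognises nascent tubulin chains on the ribosome and recruits SCAPER and the CCR4-NOT deadenylase to their mRNA. In gliomas the same machinery forms the mitotic spindle and carries cargo in migrating cells.

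Each gene is described by the log2 fold change ± SE in the authors' deposited table, read as YZ129 over DMSO, so that a negative value means a lower level with YZ129. Values per library were not analysed here. Since no label states whether replicate libraries were grown apart, the p-values reflect only the variation in the authors' fit, possibly technical. The table does not name its numerator, and the comparison's name, with DMSO before YZ129, would point to the opposite reading. The sign was read from heat shock genes, which HSP90 inhibitors are known to raise: of 21 listed, 11 passed with a positive value and 0 with a negative one, led by the inducible HSP70 gene HSPA6 at 2.64 ± 0.23 in the authors' deposited table. The reading is an assumption: were it the opposite, every direction given here would turn around. The fold changes of weakly expressed genes had been drawn towards 0 before deposit. A gene passed at an adjusted p (Benjamini-Hochberg, Wald test in a table with DESeq2 columns) under 0.05.

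Cell type markers were looked up by their mean level in the authors' deposited table (reads normalized by size factors, not per length, so levels are not compared between genes). That mean covers 8 libraries, 4 more than described here. The levels therefore cannot show the cell type of the described libraries alone. Of the astroglial and glioma markers, VIM stood at 298885, CD44 at 134994, EGFR at 6255 and CHI3L1 at 4151, GFAP at 52.2, and SOX2 and S100B near 0 at 0.851 and 1.12. Of 11 tested markers of that list 5 fell, by 1.03 (SLC1A3), 0.94 (SOX9), 0.59 (NES), 0.46 (VIM) and 0.38 (CD44) on the log2 scale, and PDGFRA rose by 0.57 in the authors' deposited table. Neuronal markers ranged from 0.821 (STMN2) to 10419 (ENO2), with SNAP25 at 716, SYT1 at 408, DCX at 2.18 and NEFL at 1.13. Of 6 tested neuronal markers 3 fell and 0 rose: SNAP25, ENO2 and GAP43 fell by 1.43, 1.12 and 1.06 on the log2 scale in the authors' deposited table. Epithelial markers ranged from 0.344 (KRT5) to 93.7 (KRT8). On the blood and endothelial list CD68, a lysosomal protein used as a macrophage marker, stood at 12821, while the other markers lay between 0.629 (CDH5) and 24.6 (PECAM1), with PTPRC at 2.28. Of the 3 epithelial and 4 blood or endothelial markers tested 0 were called in the authors' deposited table, and 0 had an unadjusted p under 0.05. Beside these marker counts, 7.64% of all tested genes were lower and 5.24% higher. The part of these markers in the members' results was not tested.

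Of the 39 genes, 4 fell with YZ129, 0 rose and 35 did not pass. Among all 14812 tested genes 12.9% were called, 7.64% as lower and 5.24% as higher, so the members' share of 10.3% lay near the background. Among the 7377 tested genes whose mean level was 1000 or more, to which 33 of the 39 members belong, 10.1% were lower and 3.82% higher. At an unadjusted p under 0.05 (Wald test), 6 of the 39 members were lower and 0 higher. Of all 14812 tested genes, 3694 had such a p in either direction, so the members show no excess. The median change of the 39 was -0.08, beside -0.05 for all tested genes, and their SD was 0.26, beside 0.46. The SDs are not matched for level: the median SE was 0.45 for genes under 100 and 0.16 for those at 1000 or more. They therefore do not show that the members varied less than genes of similar level. Genes at 1000 or more had a median of -0.11, and when changes were taken relative to genes of similar level the members' median was 0.07.

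The 4 that fell were TUBGCP5, TUBGCP2 and TUBG1, which belong to the gamma-tubulin ring, and the plus-end protein MAPRE2. TUBGCP5 changed most, 1.81-fold lower (-0.85 ± 0.14 at a mean level of 1868, adjusted p = 1.28e-07 in the authors' deposited table). In these bulk samples fewer cells with a transcript and less of it per cell cannot be told apart. By adjusted p TUBGCP5 had rank 190 among all tested genes. The range of the others ran from -0.64 to 0.26, and 32 of the 39 lay within 0.3 of 0. With the members' median SE of 0.16, a change had to reach about 0.43 to pass. Of the 35 that did not pass, 34 had a 95% interval within 1 log2 unit of 0 and 22 had one within 0.5.

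**Figure D1:**
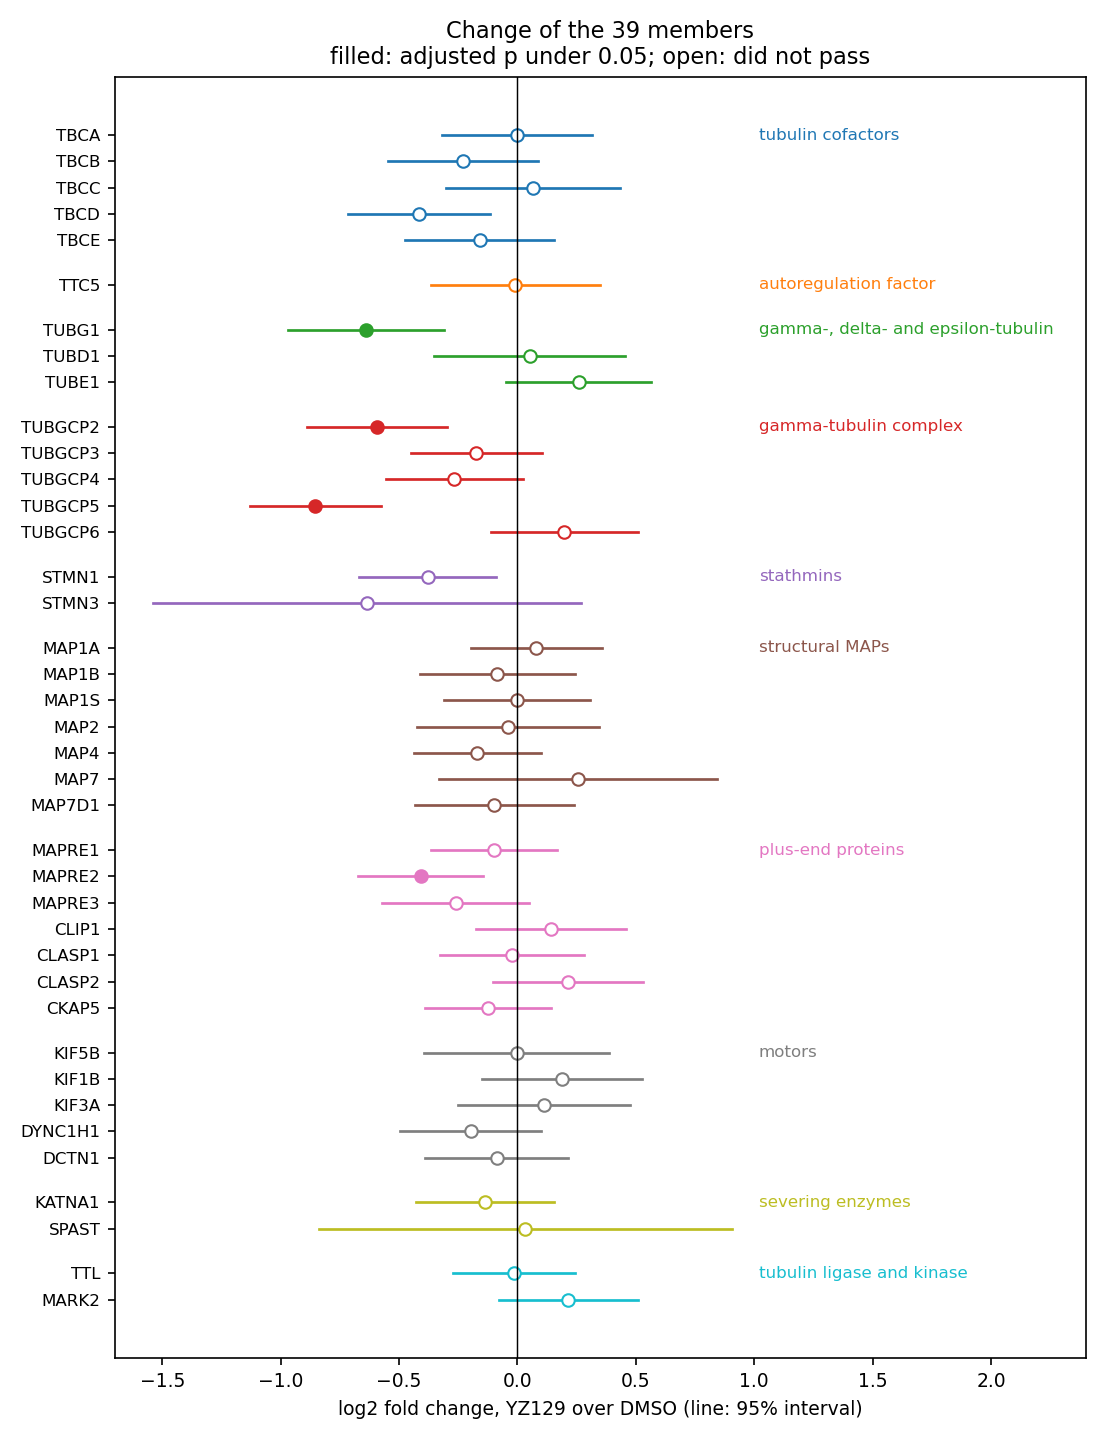
Log2 fold change (YZ129 over DMSO) of each of the 39 genes, grouped and coloured by role, with lines for 95% intervals; filled points passed an adjusted p of 0.05. The filled points TUBG1, TUBGCP2, TUBGCP5 and MAPRE2 lie to the left of 0, and the widest intervals belong to STMN3 and SPAST.

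Because TUBGCP5 and TUBG1 carried the clearest falls of a nucleation scaffold and of the tubulin it holds, their upstream sequences are shown. Each run is the 250 bases before the RefSeq start in build GRCh38.p14, 5′ to 3′ on the gene's strand, and bases after the start were found in the longest protein-coding GENCODE transcript for both. TUBGCP5 lies at chr15:23039570-23039819 on the minus strand and TUBG1 at chr17:42609433-42609682 on the plus strand. Capitals mark any match, on either strand, to 8 short motifs: CCAAT, the GC box GGGCGG, the E2F forms TTCCCGC and TTGGCGC, the ETS core CCGGAAG, the hypoxia core ACGTG, the heat shock pair GAANNTTC and the CG element TCGCGAGA. The last of these was added after the TUBGCP5 sequence had been seen.
TUBGCP5: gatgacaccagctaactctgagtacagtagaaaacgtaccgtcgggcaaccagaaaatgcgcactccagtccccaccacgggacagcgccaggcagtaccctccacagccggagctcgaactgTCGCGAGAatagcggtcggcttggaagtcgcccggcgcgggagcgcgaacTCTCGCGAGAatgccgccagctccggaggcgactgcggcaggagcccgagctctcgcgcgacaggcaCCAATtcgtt
TUBG1: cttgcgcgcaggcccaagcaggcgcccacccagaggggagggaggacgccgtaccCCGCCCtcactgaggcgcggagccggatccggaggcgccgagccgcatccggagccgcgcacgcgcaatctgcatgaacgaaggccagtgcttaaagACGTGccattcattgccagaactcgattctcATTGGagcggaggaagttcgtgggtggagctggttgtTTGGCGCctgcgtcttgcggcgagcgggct

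The upstream window of TUBGCP5 held 1 CCAAT box close to the start and 3 matches to TCGCGAGA, 2 of them overlapping as the strands of one palindrome. Of the 38 members with an entry, TUBGCP5 was the 1 with that element, which 1.055% of all 27305 RefSeq windows hold. The window of TUBG1 held 1 GC box, 1 hypoxia core, 1 CCAAT box read on the other strand and 1 E2F form TTGGCGC. Hypoxia cores were in 8 of 38 members (21.1%) and in 18.7% of all windows, CCAAT boxes in 12 (31.6%) and in 33.04%, and GC boxes in 29 (76.3%) and in 42.3%. The form TTGGCGC was in 2 members (5.26%) and 2.63% of windows, TTCCCGC in 1 (2.63%) and 5.59%, CCGGAAG in 2 (5.26%) and 8.82%, and GAANNTTC in 2 (5.26%) and 5.85%. The 27305 windows were not limited to tested genes or matched to the members by level. A difference in shares, as for the GC box, is therefore not shown to be particular to the members. A match of letters is a description and not a bound site.

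Gamma-tubulin nucleates microtubules as part of a ring. TUBG1, the main gamma-tubulin, was 1.56-fold lower with YZ129 (-0.64 ± 0.17 at a mean level of 4514, adjusted p = 0.0026 in the authors' deposited table). TUBGCP2, which with TUBGCP3 and gamma-tubulin forms the repeating unit of the ring, was 1.51-fold lower (-0.59 ± 0.15 at a mean level of 5594, adjusted p = 0.0016 in the authors' deposited table). TUBGCP3 itself had -0.17 ± 0.14 and did not pass (adjusted p = 0.48 in the authors' deposited table). TUBGCP4, TUBGCP5 and TUBGCP6 are the subunits found in the large ring but not in its small repeating unit. Next to the fall of TUBGCP5, TUBGCP4 had -0.27 ± 0.15 (adjusted p = 0.25) and TUBGCP6 0.20 ± 0.16 (adjusted p = 0.47) in the authors' deposited table. Among the 6 ring genes 3 fell, where 7.64% of all tested genes and 10.1% of those at a mean level of 1000 or more were lower. The 6 were grouped with their values known, so the count is a description.

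The TUBGCP genes differed from each other in their change. Differences between members of the same family were compared with a Wald test on the authors' estimates and SEs, over 36 pairs in 10 families with Benjamini-Hochberg adjustment, and 5 pairs passed; the test treats estimates from the same libraries as independent. TUBGCP5 minus TUBGCP6 was -1.05 (95% interval -1.47 to -0.63, adjusted p = 2.73e-05 from the Wald test on the DESeq2 columns). Against TUBGCP3 the difference, TUBGCP3 minus TUBGCP5, was 0.68 (0.29 to 1.07), and TUBGCP4 minus TUBGCP5 was 0.59 (0.19 to 0.99), with adjusted p of 0.0062 and 0.029 from the same Wald test. TUBGCP2 minus TUBGCP6 was -0.79 (-1.22 to -0.36; adjusted p = 0.0036). TUBGCP2 minus TUBGCP5 was 0.26 and did not pass, with an interval from -0.14 to 0.67, and TUBGCP2 minus TUBGCP3 was -0.42, with an interval from -0.82 to -0.01 (adjusted p = 0.19).

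**Figure D2:**
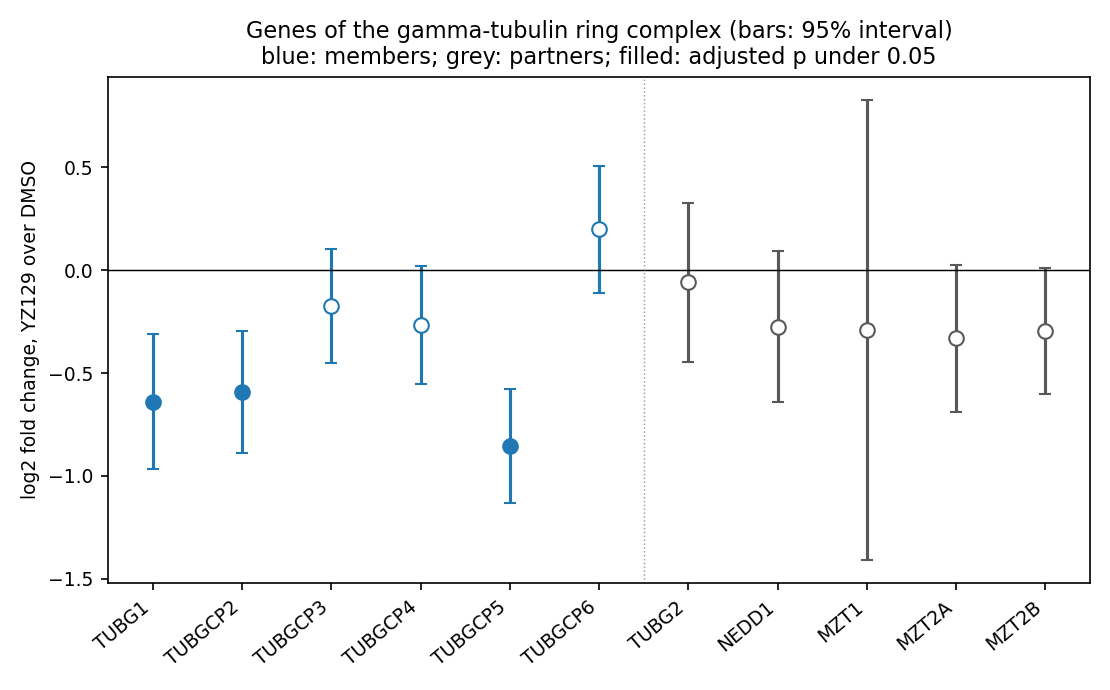
Log2 fold change (YZ129 over DMSO, vertical axis) of 6 ring members in blue and of 5 partners in grey, with bars for 95% intervals and filled points for an adjusted p under 0.05. TUBG1, TUBGCP2 and TUBGCP5 lie below 0, TUBGCP6 at 0.20, and the bar of MZT1 is the widest.

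Reads of some of these genes can be shared with others, by a counting method not given in the sources used here. TUBG2, the close paralog of TUBG1, holds 29.1% of the 50-base words of the longest TUBG1 transcript in GENCODE v29, so reads of the pair could be split or exchanged. TUBG2 stood at -0.06 ± 0.20 in the authors' deposited table, with a difference of -0.58 between TUBG1 and TUBG2 (95% interval -1.09 to -0.07). The pair was not among the 36 adjusted family pairs and its interval is unadjusted, so a difference between the paralogs was not shown. TUBGCP2 shares 11.6% of its exonic bases with ZNF511 on the opposite strand, and without known strand the reads of that stretch cannot be assigned. TUBGCP4 shares 33.4% with TP53BP1 on the opposite strand, the largest overlap among the members. TUBGCP5 shared no exonic base with an annotated gene and no 50-base word with another transcript, and the same held for MAPRE2.

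Genes next to the 4 that fell were looked up after these results were known. Among the nearest tested protein-coding genes matched by symbol on each side, 4 of 8 fell and 1 rose. Of 69 neighbours of the other 35 members 4 fell and 2 rose, where 7.64% of all tested genes were lower and 5.24% higher. TP53BP1 enters the 69 both beside TUBGCP4 and beside MAP1A. A gene tested under another symbol was skipped, so a nearer tested gene can be missing. Among the 4 falls beside the members that fell is ZNF511, whose exons overlap those of TUBGCP2 as given above. As the counting method is not known, ZNF511 may not be a separate measurement. The falls were CYFIP1 beside TUBGCP5 (-0.43 ± 0.14), ADAM8 (-0.97 ± 0.20) and ZNF511 (-0.50 ± 0.17) around TUBGCP2, and DTNA beside MAPRE2 (-0.38 ± 0.13) in the authors' deposited table. The rise was ZNF397 on the other side of MAPRE2 (0.65 ± 0.17 in the authors' deposited table). For TUBG1 the genes matched were PSMC3IP (-0.09 ± 0.17) and TUBG2, with adjusted p of 0.81 and 0.89 in the authors' deposited table. RETREG3, on the opposite strand, overlaps 5.77% of the exonic bases of TUBG1 and was not among the neighbours matched. The genes matched therefore do not show whether the closest neighbour of TUBG1 changed.

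Delta- and epsilon-tubulin, which serve the triplet microtubules of centrioles, did not pass. TUBD1 had 0.05 ± 0.21 (adjusted p = 0.91) and TUBE1 0.26 ± 0.16 (adjusted p = 0.30), the highest value among the members in the authors' deposited table. TUBG1 minus TUBE1 was -0.90 (95% interval -1.35 to -0.45), which passed over the 36 pairs (adjusted p = 0.0017, Wald test on the DESeq2 columns). TUBG1 minus TUBD1 was -0.69, with an interval from -1.21 to -0.17, and did not pass (adjusted p = 0.057).

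The alpha- and beta-tubulins, which build the polymer, changed far more. Of 14 tested alpha- and beta-tubulin isotypes 10 fell and 0 rose with YZ129, where 7.64% of all tested genes were lower and 5.24% higher. The smallest adjusted p-values were those of TUBB (-2.52 ± 0.14), TUBA1B (-2.03 ± 0.15), TUBA1A (-1.95 ± 0.16) and TUBA4A (-2.06 ± 0.17) in the authors' deposited table. The lowest estimate was that of TUBA3C, -2.59 ± 0.66 at a mean level of 11.4, named after its values were seen. TUBG1, although lower itself, differed from 11 of the 14 isotypes in a comparison of 42 pairs added after the values were seen (Wald test, Benjamini-Hochberg over the 42 pairs). TUBG1 minus TUBB was 1.88 (95% interval 1.45 to 2.32), and over the 10 isotypes that fell the difference ran from 0.62 to 1.95. The other was TUBB1, named after its values were seen, with 0.49 ± 0.24 in the authors' deposited table, from which TUBG1 differed the other way, by -1.13. TUBD1 and TUBE1 each differed from 10 of the 14. Several tubulin isotypes have near-identical copies, so their separate values are uncertain.

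**Figure D3:**
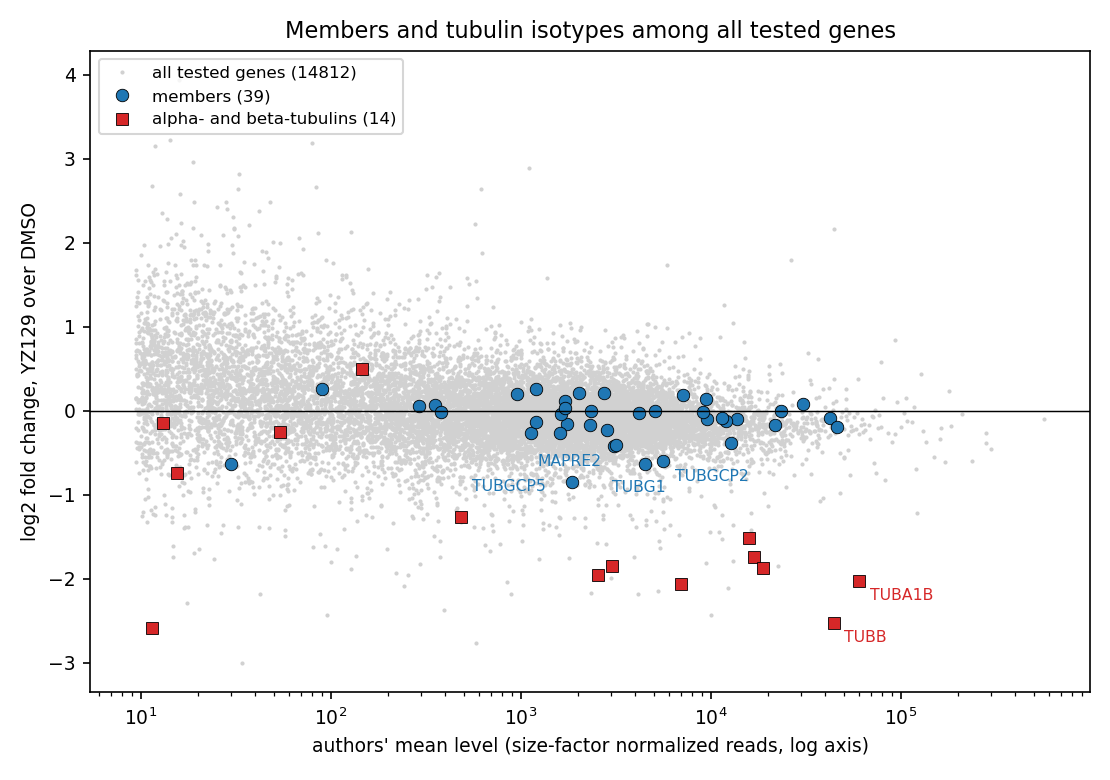
Log2 fold change (YZ129 over DMSO, vertical axis) against the authors' mean level (horizontal log axis) for all tested genes in grey, 39 members in blue and 14 alpha- and beta-tubulin isotypes as red squares. TUBB at -2.52 and TUBA1B at -2.03 lie far below the blue points, whose lowest is TUBGCP5 at -0.85.

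The tubulin folding cofactors gave 0 calls in 5 genes, with 1 at an unadjusted p under 0.05. As 12.9% of all tested genes were called, 0 in 5 does not set the cofactors apart from the background. TBCA receives beta-tubulin from the chaperonin and had -0.00 ± 0.16 (adjusted p = 1.00 to 2 decimals in the authors' deposited table). TBCD, which holds beta-tubulin and joins the assembly of the dimer, had -0.42 ± 0.15, a 95% interval from -0.72 to -0.12, in the authors' deposited table. Its adjusted p of 0.050004 had rank 1909, directly behind the last of the 1908 genes called. TBCB and TBCE, the alpha-tubulin cofactors, had -0.23 ± 0.16 and -0.16 ± 0.16, and TBCC, which triggers release of the finished dimer, had 0.06 ± 0.19, none of which passed in the authors' deposited table. No pair of cofactors passed the test of their difference; the widest gap, TBCC minus TBCD, was 0.48 with an interval from 0.01 to 0.96 (adjusted p = 0.19 over the 36 pairs, Wald test).

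TTC5, the factor that marks tubulin mRNA for decay, had -0.01 ± 0.18, with a 95% interval from -0.37 to 0.35 (adjusted p = 0.98 in the authors' deposited table). Among 13 tested genes for its partners SCAPER and CCR4-NOT, 2 fell and 0 rose, with a median of -0.20. Of all tested genes 7.64% were lower and 5.24% higher, with a median of -0.05, and a difference from them was not tested. The deadenylase subunit CNOT8 (-0.60 ± 0.15) and the CCR4-NOT-associated TNKS1BP1 (-0.55 ± 0.15) fell in the authors' deposited table. Relative to genes of similar level the list gave 1 fall and 1 rise.

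Stathmins bind free tubulin dimers and favour disassembly. STMN1, the abundant form in dividing cells, had -0.38 ± 0.15 and did not pass (adjusted p = 0.069 in the authors' deposited table). STMN3 had -0.64 ± 0.46 at a mean level of 29.8, and its interval from -1.54 to 0.27 covers both directions in the authors' deposited table.

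Structural microtubule-associated proteins gave 0 calls in 7 genes, 0 also at an unadjusted p under 0.05. With 12.9% of all tested genes called, 0 in so few genes does not set this role apart. MAP1A and MAP1B, large neuronal-type proteins that bundle microtubules, had 0.08 ± 0.14 and -0.08 ± 0.17 at mean levels of 30502 and 42558 in the authors' deposited table. MAP1S, the ubiquitous relative, had -0.00 ± 0.16, and MAP2, best known from dendrites, -0.04 ± 0.20 in the authors' deposited table. MAP4, the main such protein outside neurons, had -0.17 ± 0.14 in the authors' deposited table. MAP7, which recruits kinesin-1, had 0.25 ± 0.30 at a mean level of 89.8, and its relative MAP7D1 -0.10 ± 0.17 in the authors' deposited table. For these 7 genes no interval reached beyond 0.84 on either side of 0. Of 22 tested genes on the list of other structural proteins and stathmins, such as MAPT and the EML family, 0 passed and 2 had an unadjusted p under 0.05, with a median of -0.02.

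Plus-end proteins track growing tips. MAPRE2, which encodes EB2, was 1.33-fold lower (-0.41 ± 0.13 at a mean level of 3185, adjusted p = 0.025 in the authors' deposited table). This call was lost when changes were taken relative to the median of all tested genes (adjusted p = 0.059) or relative to genes of similar level (adjusted p = 0.12). MAPRE1, encoding EB1, had -0.10 ± 0.14 and MAPRE3, encoding EB3, -0.26 ± 0.16 in the authors' deposited table. MAPRE1 minus MAPRE2 was 0.31, with an interval from -0.07 to 0.68, so a difference among the EB genes was not shown. CLIP1, which EB proteins recruit, had 0.14 ± 0.16, the rescue factors CLASP1 and CLASP2 -0.02 ± 0.16 and 0.21 ± 0.16, and the polymerase CKAP5 -0.12 ± 0.14, none passing in the authors' deposited table. Of 18 tested genes on the list of other plus-end proteins 3 rose and 1 fell, where 5.24% of all tested genes were higher and 7.64% lower. The centrosomal TACC2 (0.68 ± 0.16), NAV3 (0.51 ± 0.16) and NAV2 (0.45 ± 0.16) rose and NAV1 (-0.53 ± 0.15) fell in the authors' deposited table.

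Motors gave 0 calls in 5 genes, 0 also at an unadjusted p under 0.05. Among all tested genes 12.9% were called, so 0 in 5 does not set the motors apart. The kinesins KIF5B, KIF1B and KIF3A, which carry organelles and vesicles towards plus ends, had -0.00 ± 0.20, 0.19 ± 0.17 and 0.11 ± 0.19 in the authors' deposited table. DYNC1H1, the heavy chain of dynein, the minus-end motor, had -0.20 ± 0.15, and DCTN1, its dynactin partner, -0.09 ± 0.15 in the authors' deposited table. DCTN1 shares 13.8% of the 50-base words of its longest transcript with the annotated gene AC006030.1. Among 25 tested dynein and dynactin subunits and adaptors 1 fell, the light chain DYNLT1 (-0.46 ± 0.15), and among 22 tested kinesins and light chains outside the spindle 1 rose, KIF21A (0.53 ± 0.17), in the authors' deposited table. Centred on the median of all tested genes, the dynein and dynactin list gave 0 falls and 1 rise, and within deciles of level 0 and 2. Mitotic kinesins gave 3 falls and 0 rises in 14 tested genes, where 7.64% of all tested genes were lower and 5.24% higher. The falls were the depolymerase KIF2C (-0.71 ± 0.14), the spindle motor KIF11 (-0.65 ± 0.18) and KIF15 (-0.44 ± 0.15) in the authors' deposited table. After either centring 2 falls were counted. Whether the mitotic kinesins differ from the member motors or from the background was not tested.

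Severing and modifying enzymes did not pass either, with 0 calls in 4 genes and 0 at an unadjusted p under 0.05. Beside the 12.9% called among all tested genes, 0 in 4 does not set these enzymes apart. KATNA1, the catalytic katanin subunit, had -0.14 ± 0.15 in the authors' deposited table. SPAST, encoding spastin, had 0.03 ± 0.45, an interval from -0.84 to 0.91, in the authors' deposited table. Its SE exceeded that of 99.0% of the 200 tested genes nearest in mean level, whose median was 0.16. SPAST was the 1 member in a band of 197 genes at a mean level of 1000 or more and an SE of at least 0.35, separated from the rest by a gap that held 0 genes between 0.3 and 0.35. None of the 197 was called in the table with DESeq2 columns, and 4 had an unadjusted p under 0.05. TTL, which puts tyrosine back on alpha-tubulin, had the smallest SE of the members at -0.01 ± 0.13, and the kinase MARK2, which loosens microtubule-associated proteins by phosphorylation, had 0.22 ± 0.15 in the authors' deposited table. Of 18 tested tubulin-modifying enzymes outside the members, the polyglutamylase subunit TTLL1 (-0.76 ± 0.22) was the 1 call in the authors' deposited table. On the list of other severing enzymes and MARK kinases 0 of 9 passed, with 1 at an unadjusted p under 0.05.

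**Figure D4:**
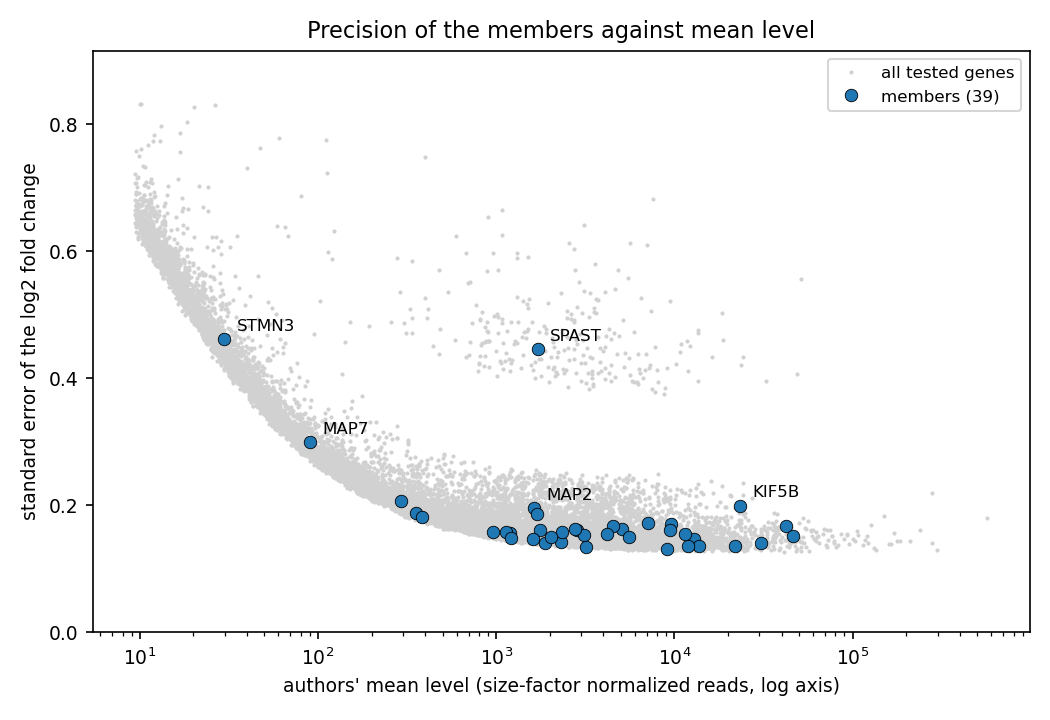
SE of the log2 fold change (vertical axis) against the authors' mean level (horizontal log axis) for all tested genes in grey and 39 members in blue. STMN3 and MAP7 lie on the rise at low level, while SPAST, with an SE of 0.45, lies in a separate band above the members of similar level.

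Partners of the gamma-tubulin ring were lower in 3 of 20 tested genes and higher in 1, where 7.64% of all tested genes were lower and 5.24% higher. Whether this list differs from the background was not tested. The 3 falls were subunits of augmin, which attaches rings to existing microtubules: HAUS2 (-0.67 ± 0.16), HAUS6 (-0.74 ± 0.19) and HAUS1 (-0.49 ± 0.16) in the authors' deposited table. The anchor PDE4DIP rose (0.44 ± 0.14 in the authors' deposited table). Relative to genes of similar level 2 of the list were lower and 1 higher. On this list the median was -0.28, beside -0.43 for the 6 ring members and -0.05 for all tested genes. NEDD1 (-0.28 ± 0.19), MZT1 (-0.29 ± 0.57), MZT2A (-0.33 ± 0.18) and MZT2B (-0.30 ± 0.16), shown in the plot of ring genes and named outside the naming rule, had adjusted p-values above 0.05 in the authors' deposited table.

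Over the 9 lists of other microtubule genes together, 11 of 161 tested genes fell and 5 rose, or 9.94% called, against 12.9% of all tested genes. Taken relative to genes of similar level the same lists gave 8 falls and 9 rises, and over all tested genes there were 920 higher and 804 lower, where the deposited values gave 776 higher and 1132 lower. The 3 ring genes stayed lower under each setting tried.

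**Figure D5:**
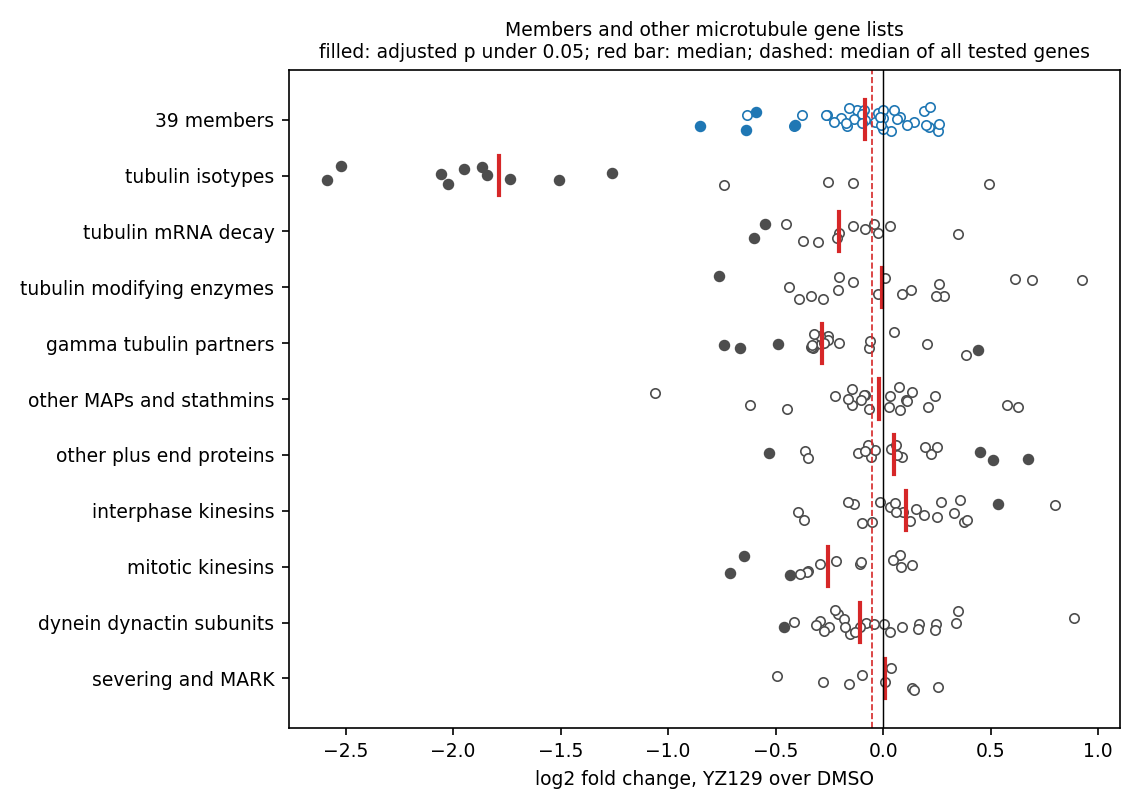
Log2 fold change (YZ129 over DMSO) of every tested gene in the 39 members (blue) and in 10 other microtubule gene lists (grey), with filled points for an adjusted p under 0.05, red bars for list medians and a dashed line for the median of all tested genes. The tubulin isotypes have a median of -1.79, while the medians of the other lists lie between -0.28 and 0.11.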

How the data were processed

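The source was a single table, deposited by the authors, comparing U87 cells under YZ129 and DMSO, with no values per library; the groups come from the sample labels. Per the submitters' processing notes, build hg19 and the tools Cuffdiff, Cufflinks 2.2.1 and TopHat2 2.0.12 were used, in roles that are not recorded; for the read counter, strand setting and gene models the sources used here give nothing. Per the file headers the columns are those of a DESeq2 results table: a mean level (a normalized signal, read counts over size factors, not per length), a log2 fold change and its SE, a score (Wald statistic), its p-value, and the adjusted value. The deposited p-value matched the two-sided normal p of the score, and the adjusted one a Benjamini-Hochberg adjustment over 14812 genes; 4937 genes with a mean level of at most 9.43 had none. The steps of low mean levels (1372 of 1372 genes with 2 to 5 reads, tolerance 1e-07) showed 8 libraries in the authors' mean, 4 more than described here; the sources used here do not say whether these entered the fit. Total depth is unknown, so no counting interval is given.

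Computed here with Python 3.11.15, pandas 2.3.3 and scipy 1.17.1 were counts, 95% Wald intervals, family differences, and re-adjusted and re-centred calls. Overlaps in GENCODE v29 and motif matches were also computed. Simulated data were used to test the calls, the interval of a difference and the finding of libraries from low mean levels. The simulated estimates were independent, so they could not test that assumption. Overlaps, neighbours and motif matches were not tested in this way. The comparison is across all genes, and no test was made over the members as a set. All members are named, and from each other list at most the 4 called genes with the smallest adjusted p. Marker genes, TUBG2, TUBB1, TUBA3C, NEDD1, the MZT genes and neighbouring genes are named outside this rule, with their values known. Members, lists and tests were chosen with earlier results of these data known.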

Additional observations from a re-analysis of the deposited data

How the results depend on the processing

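The 4 falls and 0 rises among the 39 genes became 3 to 5 falls and 0 rises under 6 alternatives: an adjusted p under 0.01, a log2 change of at least 0.5, no filter on low levels, only genes at 100 or more mean level, and centring on the median of all tested genes or within deciles of mean level. TUBG1, TUBGCP2 and TUBGCP5 passed under all 6. MAPRE2 was lost under 4 of them, and TBCD passed among genes at 100 or more (adjusted p = 0.044). The members' median moved between -0.08 and 0.07, and 4 or 5 family pairs passed where recomputed. Rises on the 9 other lists, 5 at first, numbered 1 at an adjusted p under 0.01, 3 with a log2 change of at least 0.5 and 9 within deciles. Members close to 0 that did not pass turned sign by centring alone. On the overall median these were TBCA (0.049), TTC5 (0.041), MAP1S (0.047), MAP2 (0.010), CLASP1 (0.028), KIF5B (0.048) and TTL (0.037). Within deciles they were TBCA (0.11), TTC5 (0.028), MAP1B (0.071), MAP1S (0.10), MAP2 (0.065), MAP7D1 (0.059), MAPRE1 (0.056), CLASP1 (0.094), CKAP5 (0.032), KIF5B (0.15), DCTN1 (0.068) and TTL (0.14). STMN3 and MAP7 gave no value at 100 or more. No paired analysis was possible because the table holds no values per library; for the same reason no replicate could be left out and no other count test run. Precision is limited by the few libraries and, for STMN3 and MAP7, by few reads.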
